A study of Mus musculus with 51 samples.

Results

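The Dlx, Msx and Sp genes linked to the apical ectodermal ridge of the mouse limb were followed across forelimb, hindlimb and whole embryo. The set was fixed by name as Dlx1, Dlx2, Dlx3, Dlx5, Dlx6, Msx1, Msx2, Sp6, Sp8 and Sp9, 10 genes of which 9 had a probe set assigned to them alone, with 15 probe sets among the 18194 genes measured. Sp9 had no such probe set and was not measured here. All samples were total RNA of wild-type FVB mice with no transgene or agent named, each array from 1 embryo, and the buds were cut from the body whole, so that ridge, surface ectoderm and mesenchyme were measured together. Forelimb was profiled from E9.5 to E13.5, hindlimb from E10.5, and whole embryo at all 5 stages on 2 arrays each. There were 5 arrays to a limb stage except for forelimb at E9.5 (3 arrays) and E11.5 (4 arrays) and for hindlimb at E10.5 (4 arrays). The limb replicates of a stage came from 1 litter, so stage and litter cannot be told apart, and the p-values measure the spread between embryos of a litter. The study names a total of 5 embryos, with the buds of a sample from 1 of them, but not which forelimb and hindlimb arrays shared an embryo. The arrays of the 2 limbs were compared as independent.

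The apical ectodermal ridge is the thickened rim of ectoderm at the tip of the bud. It secretes FGFs that keep the mesenchyme beneath it growing, and it regresses as the digits form. Sp6 and Sp8 are zinc-finger factors of the ectoderm that act downstream of WNT signalling and are needed for Fgf8 in the ridge, with Sp9 as their close relative. The Dlx genes are homeobox genes that lie in linked pairs, Dlx1 beside Dlx2 and Dlx5 beside Dlx6, and are used in the ridge, in the branchial arches, in forebrain neurons and, for Dlx5 and Dlx6, in the skeleton. Msx1 and Msx2 are homeobox repressors induced by BMPs, expressed in the ridge and in the mesenchyme below it.

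Promoter sequence from RefSeq (GRCm38.p6) was held for 6 of the 10 genes, in 8 entries, and is shown where it joins members of a family. The bases in capitals below are the longest run shared between the promoters of 2 different members, in 30 bases of the Sp9 promoter (chr2:73271889-73271918, plus strand) and of 1 of the 3 Sp8 promoters (chr12:118847168-118847197, plus strand).
Sp9: gcagccaGCGGCACTTCAAAGCgggtgctc
Sp8: cgcctccGCGGCACTTCAAAGCcggagagg
This run of 15 bases was held by 2 of the 32851 promoters, those of Sp8 and Sp9. It contains TCAAAG, the reverse complement of CTTTGA, the core read by the WNT factors TCF and LEF, which was found on either strand in 13.8% of all promoters. The 250 bases before the start of Msx1 (chr5:37824586-37824835, minus strand) and of Msx2 (chr13:53472781-53473030, minus strand) follow, as those of the pair that stood over whole embryo by Msx1 and by the brighter probe set of Msx2, with CCAAT, its reverse complement ATTGG and the homeodomain core TAATTA in capitals.
Msx1: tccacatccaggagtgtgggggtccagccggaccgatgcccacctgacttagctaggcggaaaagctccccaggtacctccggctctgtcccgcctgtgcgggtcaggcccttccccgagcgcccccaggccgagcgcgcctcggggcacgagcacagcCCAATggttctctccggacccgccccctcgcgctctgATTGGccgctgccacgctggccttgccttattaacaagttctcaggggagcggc
Msx2: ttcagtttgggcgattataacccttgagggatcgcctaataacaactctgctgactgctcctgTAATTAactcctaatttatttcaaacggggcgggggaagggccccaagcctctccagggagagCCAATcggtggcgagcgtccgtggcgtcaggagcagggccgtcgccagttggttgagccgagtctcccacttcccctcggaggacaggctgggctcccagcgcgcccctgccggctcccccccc
The Msx1 promoter held 2 CCAAT boxes and no TAATTA, and the Msx2 promoter held 1 of each. CCAAT was found on either strand in 33.8% of all promoters and TAATTA in 4.84%. These matches are descriptions of letters in a window, and no binding was measured.

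Levels are log2 intensities after RMA, as the mean of a gene's probe sets unless 1 is named, and the median of all probe sets was 5.31. Probes differ in brightness, so a level is compared between arrays and not between genes. Up-regulated and down-regulated stand for a difference of at least 1 log2 unit, a doubling, with a Benjamini-Hochberg adjusted p under 0.001 in limma. The 13 arrays of whole embryo or of E9.5 forelimb differed from the 38 later limb arrays in the Dap spike (10.7 to 13.3 against 3.04 to 3.63) and in the excess of the 3′ over the 5′ probe set of Gapdh (1.48 to 2.85 against -0.10 to 0.16), both log2. Every comparison of a limb with whole embryo after E9.5, and of E9.5 forelimb with a later limb, crosses these sets, and array set and group cannot be told apart there. The E9.5 groups share a set, but their Gapdh excess did not overlap (1.71, 1.73 and 1.48 in forelimb, 2.03 and 2.85 in whole embryo). Its part in the E9.5 results was not tested. The E9.5 whole-embryo pair spread widely in several members, among them Dlx2 (7.40 and 6.03), Dlx5 (7.44 and 6.32) and Msx1 (8.27 and 7.22). Titles of 2 arrays (hindlimb E11.5 replicate 5 and forelimb E12.5 replicate 5) conflict with their other labels, and their Tbx5, Tbx4 and Pitx1 levels lay on the side of their titles (5.75, 10.05 and 10.65, and 9.77, 6.77 and 5.52). Forelimb arrays read 7.62 to 9.94 for Tbx5, the forelimb factor, against 5.11 to 6.27 in hindlimb, and hindlimb arrays read 9.81 to 10.87 for Pitx1, the hindlimb factor, against 4.47 to 5.67 in forelimb.

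**Figure D1:**
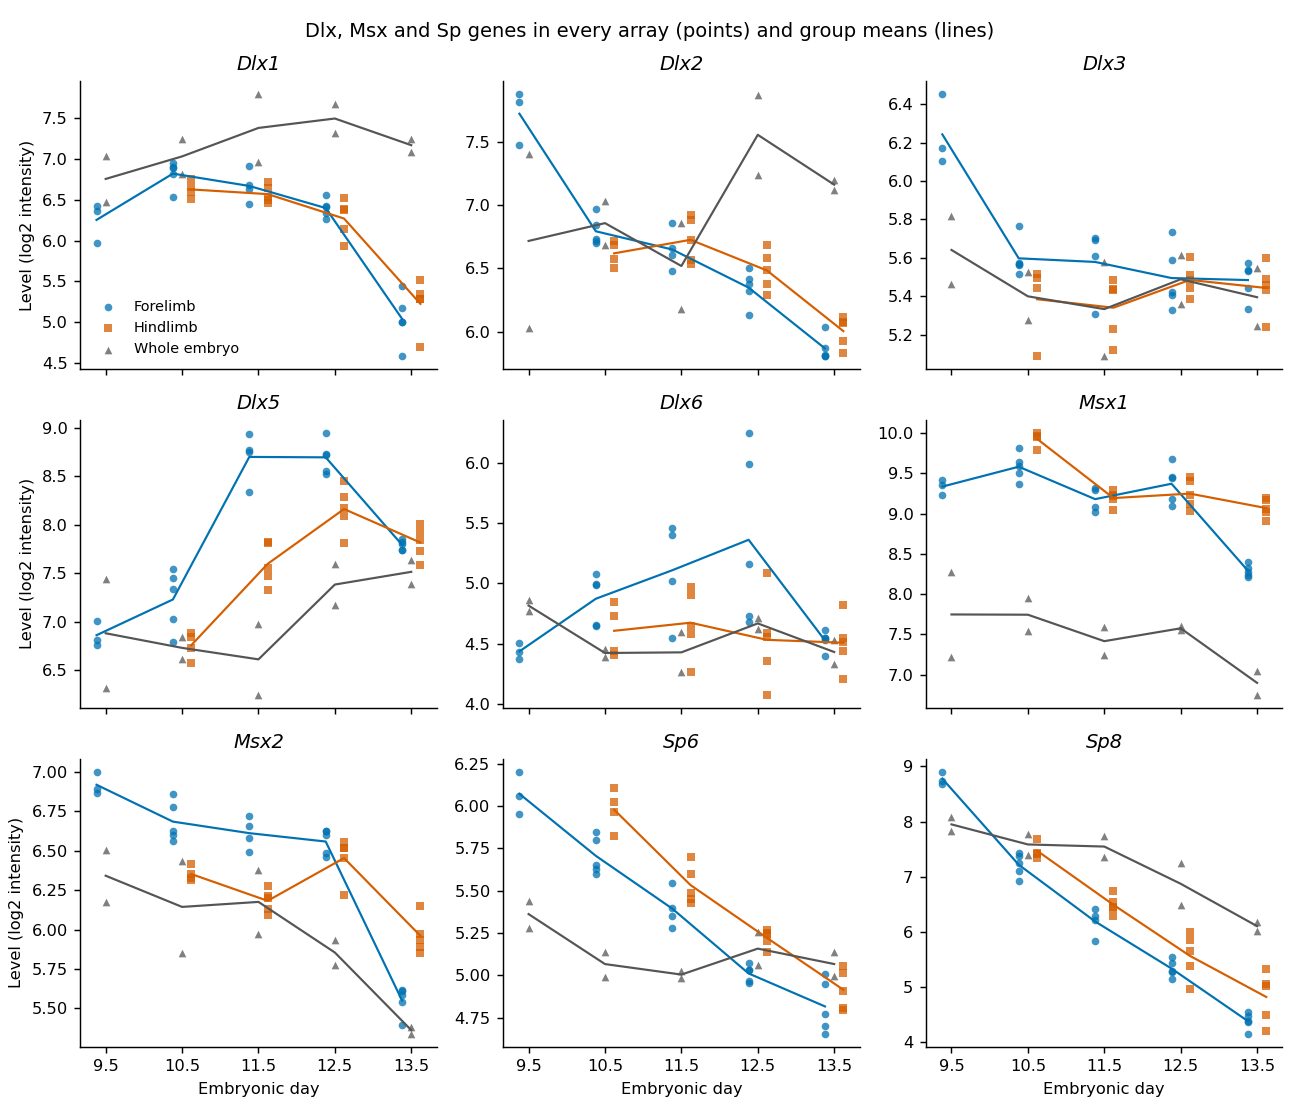
Log2 level of each of the 9 measured genes against embryonic day, with 1 point per array for forelimb (circles), hindlimb (squares) and whole embryo (triangles) and lines through the group means; the vertical scale differs between panels. Sp8 descended from stage to stage in both limbs, Msx1 lay over whole embryo at every stage, and Dlx5 was highest in E11.5 and E12.5 forelimb.

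Ordered by group mean, most neighbouring groups overlapped in their arrays. Of 13 neighbouring pairs, 10 overlapped for Sp8, Msx2 and Dlx2, 11 for Msx1, 12 for Dlx1, Dlx3, Dlx5 and Sp6, and all 13 for Dlx6. The group means spanned 3.03 log2 units for Msx1, from 6.90 in E13.5 whole embryo to 9.93 in E10.5 hindlimb, 2.45 for Dlx1, from 5.04 in E13.5 forelimb to 7.49 in E12.5 whole embryo, and 2.09 for Dlx5, from 6.61 in E11.5 whole embryo to 8.70 in E11.5 forelimb. Dlx2 spanned 1.86, with E9.5 forelimb the highest and E13.5 forelimb the lowest, and Msx2 1.56, with E9.5 forelimb the highest and E13.5 whole embryo the lowest. Sp6, Dlx6 and Dlx3 spanned 1.26, 0.94 and 0.91.

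Sp8, measured by 1 probe set, changed more than any other member, with group means that spanned 4.40 log2 units, from 8.78 in E9.5 forelimb to 4.38 in E13.5 forelimb. These ends lie in different array sets, and over the limb groups from E10.5 on the Sp8 means spanned 3.09. In forelimb the E9.5 arrays read 8.74, 8.69 and 8.91, the E10.5 arrays 7.25, 7.10, 7.37, 7.44 and 6.92, the E11.5 arrays 6.28, 6.21, 6.42 and 5.84, the E12.5 arrays 5.42, 5.54, 5.28, 5.27 and 5.14 and the E13.5 arrays 4.36, 4.47, 4.37, 4.53 and 4.15. Every array of a forelimb stage lay below every array of the stage before. In hindlimb the E10.5 arrays read 7.44, 7.42, 7.68 and 7.35, the E11.5 arrays 6.54, 6.43, 6.74, 6.29 and 6.45, the E12.5 arrays 5.99, 5.37, 4.96, 5.66 and 5.84 and the E13.5 arrays 4.20, 5.05, 5.01, 5.32 and 4.50. The hindlimb stages did not overlap up to E12.5, and E12.5 and E13.5 overlapped. In whole embryo the E9.5 arrays read 7.82 and 8.07, the E10.5 arrays 7.77 and 7.40, the E11.5 arrays 7.36 and 7.73, the E12.5 arrays 6.49 and 7.25 and the E13.5 arrays 6.18 and 6.02. Sp8 fell by 2.84 on the log2 scale from E10.5 to E13.5 in forelimb (fold change 7.15, SE 0.16, adjusted p = 2.49e-19) and fell by 2.65 in hindlimb (fold change 6.29, SE 0.17, adjusted p = 1.77e-17). In whole embryo it fell by 1.85 from E9.5 to E13.5 (SE 0.26, adjusted p = 6.59e-08), an adjusted p of 0.00583 with these 2 groups fitted alone. Against whole embryo of the same stage Sp8 had a log2 fold change of 0.83 (SE 0.24, adjusted p = 0.00516) in E9.5 forelimb, and was down-regulated in both limbs from E11.5 on, by 1.36 to 1.72 in forelimb and by 1.06 to 1.31 in hindlimb. The hindlimb calls at E11.5 and E12.5 were lost without whole-embryo replicate 2 of the stage (-0.87 and -0.93), and those at E12.5 and E13.5 with the 2 groups fitted alone (adjusted p = 0.00354 and 0.00119). These were bulk samples, in which fewer ridge cells and less RNA per cell cannot be told apart.

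Sp6, which acts beside Sp8 in the ridge, was down-regulated over the same stages in hindlimb and, at a fold change of 1.85, was not counted in forelimb. Its averaged level in forelimb went from 6.07 ± 0.13 (SD, n = 3) at E9.5 through 5.70, 5.39 and 5.01 to 4.82 ± 0.15 (SD, n = 5) at E13.5, and in hindlimb from 5.98 ± 0.12 (SD, n = 4) at E10.5 through 5.53 and 5.22 to 4.91 ± 0.12 (SD, n = 5). The step from E9.5 to E10.5 averages opposed probe sets and crosses the array sets, as given below. From E10.5 to E13.5 the log2 fold change was -1.06 (95% interval -1.22 to -0.91, adjusted p = 2.64e-16) in hindlimb and -0.89 (95% interval -1.03 to -0.75, adjusted p = 1.08e-14) in forelimb. The forelimb change minus the hindlimb change was 0.17 (95% interval -0.04 to 0.38, adjusted p = 0.288), so a difference between the limbs was not shown. By the averaged values whole embryo moved less, between 5.00 and 5.36. By the brightest probe set of Sp6 alone, however, whole embryo fell by 1.17 from E9.5 to E13.5 (limma, adjusted p = 9.8e-06).

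The 4 probe sets of Sp6 did not all move together. One, 1427786_at, stayed between 3.90 and 4.24 in all group means. From E10.5 to E13.5 the sets 1427787_at and 1437788_at were down-regulated in forelimb (-1.85 and -1.23) and, with 1442342_at, in hindlimb (-1.96, -1.05 and -1.16). Over the 38 later limb arrays 1427787_at and 1437788_at correlated at r = 0.93, with 1 point per array. Between E9.5 and E10.5 forelimb, which crosses the array sets, these same 2 went opposite ways. The log2 fold change was 1.05 (SE 0.15, adjusted p = 7.88e-08) for 1427787_at, from arrays at 5.10, 5.32 and 4.92 to arrays at 6.02, 6.10, 6.14, 6.35 and 6.23. It was -2.23 (SE 0.16, adjusted p = 2.66e-16) for 1437788_at, from 9.51, 9.73 and 9.06 to 7.23, 7.17, 7.53, 7.22 and 6.85. No direction is therefore given for Sp6 at this step, and the part of the array sets in it was not tested.

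**Figure D2:**
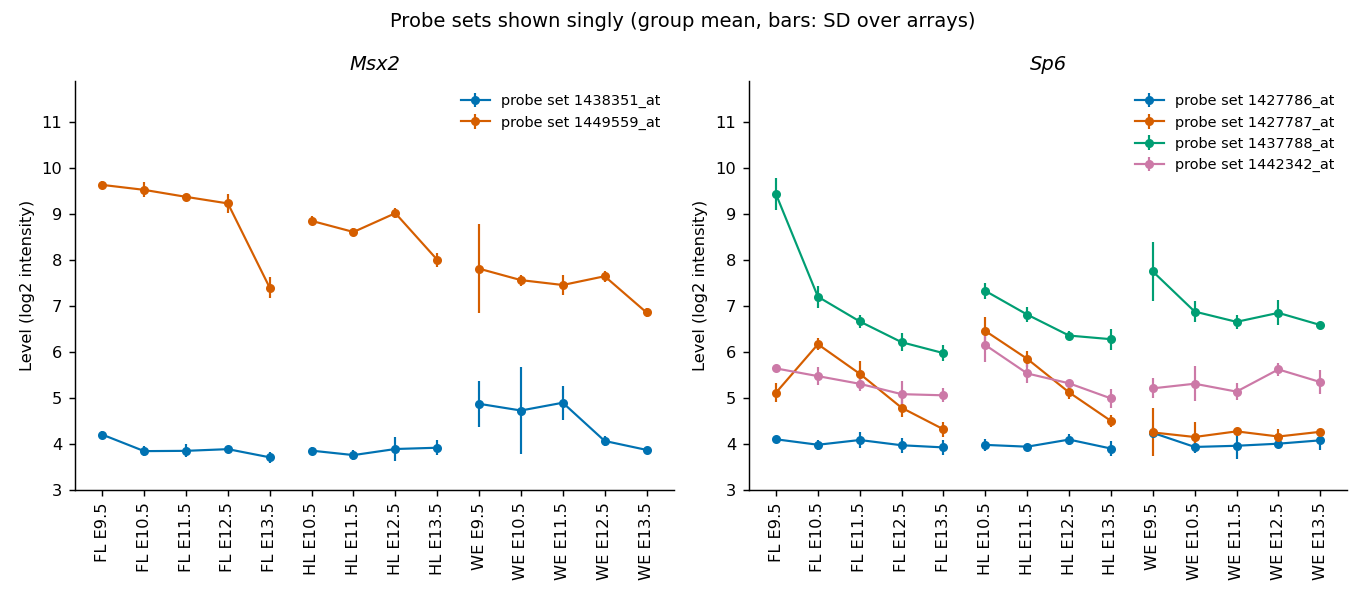
Log2 level of each probe set of Msx2 and Sp6 in the 14 groups of forelimb, hindlimb and whole embryo, as the group mean with its SD over arrays. Msx2 rests on probe set 1449559_at, the other lying near 4, and the Sp6 probe sets 1427787_at and 1437788_at move in opposite directions from E9.5 to E10.5 forelimb.

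Sp8 and Sp6 shared their course over the limb stages with Fgf8, the ridge signal they are needed for. Over the 8 limb group means from E10.5 to E13.5, Sp8 correlated with Sp6 at r = 0.99 and with Fgf8 at r = 0.99, and Sp6 with Fgf8 at r = 0.98. These are descriptions over 8 points that share a common trend with age. Within groups, over deviations from the group means, the same r were 0.49, 0.05 and 0.14. Fgf8 fell by 4.83 on the log2 scale in forelimb (SE 0.23, adjusted p = 2.68e-22) and fell by 4.96 in hindlimb (SE 0.24, adjusted p = 1.05e-21) from E10.5 to E13.5. Before that, from E9.5 to E10.5 forelimb, Fgf8 rose by 1.37 (SE 0.26, adjusted p = 2.01e-05) while Sp8 fell by 1.56 (SE 0.19, adjusted p = 2.03e-09), a step that crosses the array sets.

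Markers of surface ectoderm did not go one way over these stages. Of the 14 genes, 3 were up-regulated (Krt5, Krt14 and Perp) and 4 down-regulated (Krt8, Krt18, Krt19 and Cldn6) from E10.5 to E13.5 in each limb, with a median log2 fold change of -0.11 in forelimb and -0.18 in hindlimb, against -0.03 and -0.08 for all genes. Trp63, the master factor of stratified epithelium, had -0.11 and -0.21, while Krt8 and Krt18, keratins of simple epithelium, had -2.57 and -2.03 in forelimb, and Krt5, of the basal layer, rose by 1.56. The mean over the 14 genes read 7.67 to 7.80 on E10.5 and 7.23 to 7.57 on E13.5 forelimb arrays, and 7.46 to 7.80 and 7.20 to 7.55 on hindlimb arrays. The summed signal of the 14 genes, as log2, read 11.82 to 11.97 and 11.85 to 12.34 in forelimb and 11.67 to 11.99 and 11.69 to 12.23 in hindlimb. The part of ectoderm in the Sp8 and Sp6 results was not tested.

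**Figure D3:**
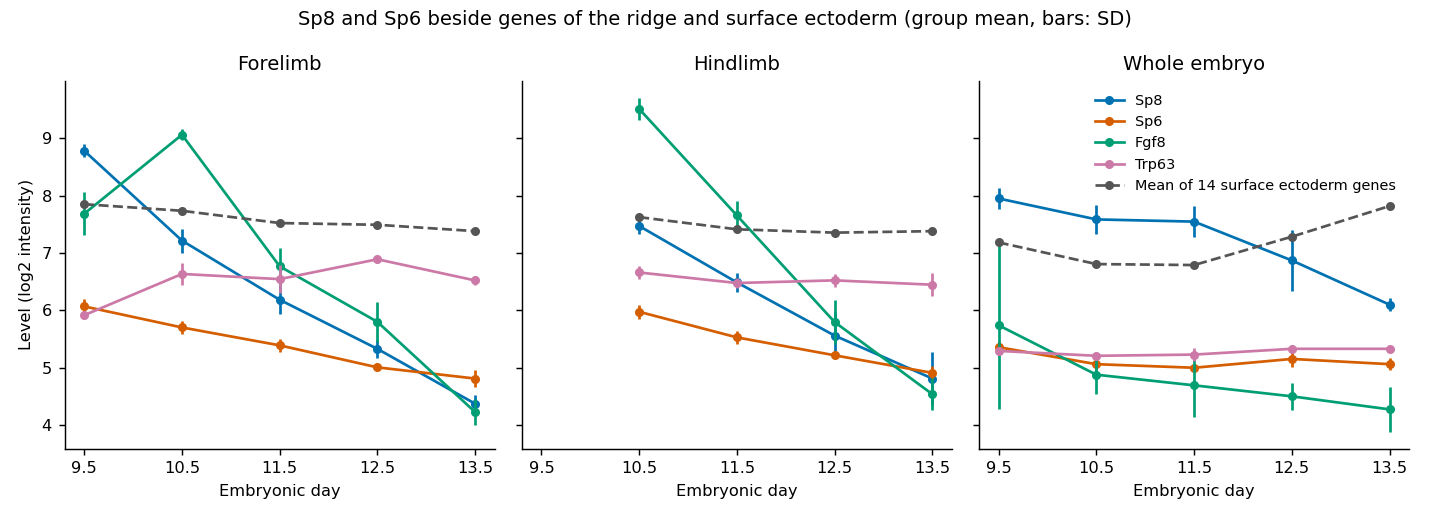
Group means of log2 level against embryonic day for Sp8, Sp6, Fgf8 and Trp63, with SD bars, and the mean of 14 surface ectoderm genes (dashed). In both limbs Sp8, Sp6 and Fgf8 went down from E10.5 to E13.5, while the ectoderm mean went from 7.74 to 7.38 in forelimb and from 7.62 to 7.38 in hindlimb.

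Msx1 was the 1 member up-regulated by its average in all 9 comparisons of a limb with whole embryo, by 1.39 to 2.18 on the log2 scale. In forelimb the E9.5 arrays read 9.23, 9.42 and 9.36, the E10.5 arrays 9.59, 9.37, 9.82, 9.64 and 9.5, the E11.5 arrays 9.08, 9.02, 9.30 and 9.32, the E12.5 arrays 9.10, 9.46, 9.68, 9.44 and 9.18 and the E13.5 arrays 8.40, 8.24, 8.32, 8.22 and 8.28. In hindlimb the E10.5 arrays read 10.003, 9.95, 9.79 and 9.97, the E11.5 arrays 9.21, 9.05, 9.29, 9.24 and 9.18, the E12.5 arrays 9.12, 9.03, 9.24, 9.46 and 9.40 and the E13.5 arrays 9.17, 9.02, 9.19, 8.91 and 9.06. In whole embryo the E9.5 arrays read 8.27 and 7.22, the E10.5 arrays 7.54 and 7.95, the E11.5 arrays 7.24 and 7.59, the E12.5 arrays 7.55 and 7.60 and the E13.5 arrays 6.75 and 7.05. At each stage every limb array was above both whole-embryo arrays. The excess was largest in hindlimb at E10.5 (2.18, SE 0.16, adjusted p = 3.16e-15) and E13.5 (2.17, SE 0.16, adjusted p = 9.65e-16) and lowest in forelimb at E13.5 (1.39, SE 0.16, adjusted p = 3.86e-10). At E9.5, within 1 set of arrays, it was 1.59 (SE 0.17, adjusted p = 1.32e-09), and with these 2 groups fitted alone the adjusted p was 0.0581. Both probe sets moved alike over the 38 later limb arrays (r = 0.92), although 1417127_at had 0.73 in E13.5 forelimb against 2.05 for 1448601_s_at, a set marked by the maker as able to match more than 1 transcript.

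Msx2 stood over whole embryo by the probe set that carried signal, and not by the average. Probe set 1438351_at lay between 3.70 and 4.89 in every group mean, under the median of all probe sets, and its average with 1449559_at gave Msx2 0.01 to 0.70 over the 9 comparisons, none of them counted. Probe set 1449559_at alone read 9.40, 9.61, 9.43, 9.43 and 9.78 in E10.5 forelimb, 8.84, 8.94, 8.73 and 8.91 in E10.5 hindlimb and 7.48 and 7.65 in E10.5 whole embryo. By this set Msx2 was up-regulated in 8 of 9 comparisons, by 1.15 to 1.97, the exception being E13.5 forelimb at 0.54 (SE 0.18, adjusted p = 0.0101). The dim set ran the other way at E11.5, at -1.05 in forelimb and -1.14 in hindlimb, both past the thresholds. For Sp6, 1427787_at was up-regulated in E10.5 forelimb and hindlimb (2.02 and 2.31) and again a day later (1.25 and 1.58), and 1437788_at in E9.5 forelimb (1.68). For Dlx3, 1450475_at was up-regulated in E9.5 forelimb (1.08) and 1422037_at had 0.12 there. Of all 45101 probe sets, 4.06% passed in either direction against whole embryo in E9.5 forelimb. In forelimb of the 4 later stages, in their order, 17.5%, 19.7%, 16.8% and 17.0% passed, and in hindlimb of the same stages 17.0%, 20.4%, 15.0% and 17.4%.

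**Figure D4:**
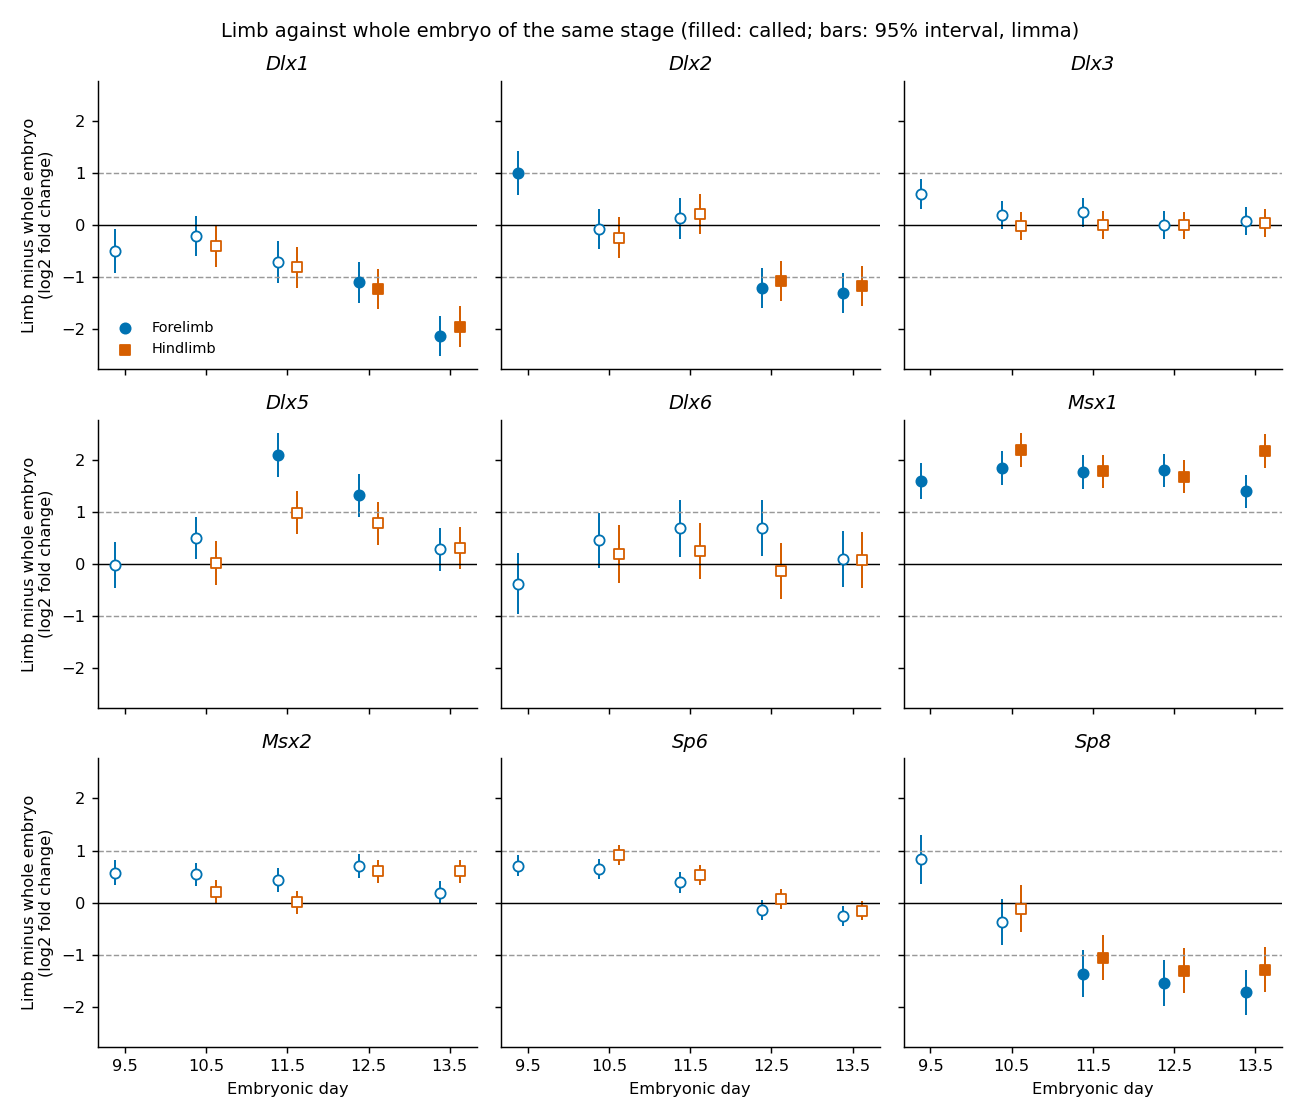
Log2 fold change of forelimb (circles) and hindlimb (squares) against whole embryo of the same embryonic day, with 95% intervals from limma; filled symbols passed both thresholds, and dashed lines mark a fold change of 2. Msx1 was filled throughout, Dlx5 in forelimb at E11.5 and E12.5, and Dlx1, Dlx2 and Sp8 were filled on the lower side at later stages.

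Across the 9 comparisons with whole embryo, 26 of 81 averaged values passed the thresholds, 12 higher and 14 lower in limb. At E9.5, 2 of 9 members (Msx1 and Dlx2) were up-regulated, against 2.08% of all genes. Both calls were lost with these 2 groups fitted alone, and that of Dlx2 also in further alternatives given below. The count of all genes past the thresholds in either direction at E9.5, 671, was 1977 without whole-embryo replicate 1 and 434 without replicate 2. Msx1 was the 1 member past the thresholds in either direction at E10.5, against 13.9% of genes in forelimb and 13.2% in hindlimb. In forelimb, 2 members (Msx1 and Dlx5) were up-regulated at E11.5 against 11.7% and again at E12.5 against 8.52%, and 1 (Msx1) at E13.5 against 5.54%. In hindlimb Msx1 was the 1 up-regulated member at E11.5 (11.8% of genes), E12.5 (7.11%) and E13.5 (6.1%). Dlx5 in E11.5 hindlimb, at 0.99 (SE 0.20, adjusted p = 4.97e-05), passed without whole-embryo replicate 2 (1.35) or hindlimb replicate 1 or 2 (1.05 and 1.02). A count of 1 in 9 is near these shares. On the lower side, 1 member (Sp8) was down-regulated at E11.5, against 3.64% of genes in forelimb and 3.95% in hindlimb. Dlx1, at -0.71 and -0.81 there, passed in both limbs without whole-embryo E11.5 replicate 2 (-1.12 and -1.22) and under quantile normalization (-1.16 and -1.23). At E12.5 there were 3 (Dlx1, Dlx2 and Sp8) against 5.44% in forelimb and 5.43% in hindlimb, and at E13.5 the same 3 against 8.12% and 8.35%. The median log2 fold change of the 9 members lay between -0.003 and 0.60 and that of all genes between -0.08 and 0.09.

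Dlx1 and Dlx2, the linked pair used also in the forebrain and the branchial arches, stood below whole embryo at late stages, Dlx1 the furthest of all members at E13.5. Dlx1 read 6.26, 6.56, 6.43, 6.41 and 6.34 in E12.5 forelimb, 6.38, 6.52, 6.14, 5.93 and 6.37 in hindlimb and 7.32 and 7.67 in whole embryo. A day later it read 5.00, 5.17, 5.00, 4.58 and 5.45 in forelimb, 5.35, 5.52, 5.28, 5.28 and 4.69 in hindlimb and 7.09 and 7.25 in whole embryo. At both stages every limb array lay below both whole-embryo arrays. At E13.5 the log2 fold change against whole embryo was -2.13 (SE 0.19, adjusted p = 6.85e-13) in forelimb and -1.94 (SE 0.19, adjusted p = 8.52e-12) in hindlimb. Dlx2 read 5.81, 5.87, 6.03, 5.80 and 5.82 in E13.5 forelimb, 5.83, 6.08, 6.11, 6.07 and 5.93 in hindlimb and 7.12 and 7.20 in whole embryo. Its log2 fold change was -1.30 (SE 0.19, adjusted p = 1.38e-07) in forelimb and -1.16 (SE 0.19, adjusted p = 1.22e-06) in hindlimb, again with no overlap. At E12.5 the calls of Dlx2 in both limbs and of Dlx1 in forelimb were lost without whole-embryo replicate 2 (log2 fold changes of -0.92 to -0.76). At E9.5, within 1 set of arrays, Dlx2 stood higher in forelimb (1.01, SE 0.21, adjusted p = 0.000188). Its arrays read 7.82, 7.88 and 7.47 there, against 7.40 and 6.03 in whole embryo. The call was lost without whole-embryo replicate 2 (0.32), the array with the highest Gapdh excess of that set (2.85). It was also lost without forelimb replicate 1 or 2 (0.96 and 0.93) and under quantile normalization (0.82). With the 2 groups fitted alone the adjusted p was 0.235 (limma).

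The change of the pair within the limb went the same way. From E10.5 to E13.5 Dlx1 fell by 1.78 in forelimb (SE 0.15, adjusted p = 2.27e-14) and fell by 1.40 in hindlimb (SE 0.15, adjusted p = 1.18e-10). Dlx2 had -0.93 (SE 0.14, adjusted p = 3.45e-07) and -0.62 (SE 0.15, adjusted p = 0.00058), under the fold threshold. Most of the Dlx1 change lay in the last step, E12.5 to E13.5, at -1.36 in forelimb and -1.04 in hindlimb. The 2 genes correlated at r = 0.97 over the 8 limb group means and at 0.25 within groups. In whole embryo the log2 fold change from E9.5 to E13.5 was 0.41 for Dlx1 and 0.45 for Dlx2, neither past the thresholds, but Dlx2 was up-regulated without E9.5 replicate 1 (1.13, adjusted p = 1.52e-05). Forebrain markers (7 measured) moved with the whole-embryo stages, their mean level reading 4.27 to 4.34 at E9.5 and 5.21 to 5.29 at E13.5 against 3.85 to 4.14 on all limb arrays, and 3 of the 7 (Gad1, Gad2 and Lhx8) were up-regulated in whole embryo over these stages. Their summed signal, as log2, read 7.14 to 7.20 at E9.5 and 8.33 to 8.42 at E13.5 in whole embryo. Of the pharyngeal arch and neural crest markers (8 of 9 measured), none passed in whole embryo over these stages, and 2 in forelimb (Barx1 and Pou3f3) and 3 in hindlimb (with Alx1) were down-regulated against whole embryo at E13.5, with a median of -0.17 and -0.22. The part of these tissues in the Dlx1 and Dlx2 contrast was not tested.

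Dlx5, a homeobox gene of the ridge and of cartilage and bone, was the 1 member that differed between the limbs by the thresholds. In forelimb the E9.5 arrays read 6.81, 6.76 and 7.01, the E10.5 arrays 7.45, 7.33, 7.03, 6.79 and 7.54, the E11.5 arrays 8.34, 8.75, 8.93 and 8.78, the E12.5 arrays 8.53, 8.95, 8.73, 8.72 and 8.56 and the E13.5 arrays 7.82, 7.80, 7.74, 7.74 and 7.86. In hindlimb the E10.5 arrays read 6.57, 6.89, 6.84 and 6.72, the E11.5 arrays 7.33, 7.48, 7.81, 7.55 and 7.82, the E12.5 arrays 7.81, 8.29, 8.17, 8.45 and 8.09 and the E13.5 arrays 7.73, 7.92, 7.84, 8.01 and 7.58. At E11.5 and E12.5 every forelimb array was above every hindlimb array, and at E13.5 the limbs overlapped. The E11.5 difference was 1.11 (SE 0.16, adjusted p = 7.59e-06), and with these 2 groups fitted alone the adjusted p was 0.0011, on the other side of the threshold. At E12.5 it was 0.53 (SE 0.15, adjusted p = 0.0184) and at E13.5 -0.02 (SE 0.15, adjusted p = 0.967). The hindlimb develops later than the forelimb, so each forelimb stage was also set against hindlimb 1 stage older. There Dlx5 had -0.37 in E10.5 forelimb, 0.54 in E11.5 forelimb and 0.88 in E12.5 forelimb, none past the thresholds.

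Dlx5 rose by 1.47 from E10.5 to E11.5 in forelimb (SE 0.16, adjusted p = 1.12e-09), and had 0.84 (SE 0.16, adjusted p = 6.25e-05) and then 0.57 (SE 0.15, adjusted p = 0.00691) in the hindlimb steps. The forelimb change minus the hindlimb change was 0.63 (95% interval 0.17 to 1.1, adjusted p = 0.113) for the first of these steps, so a difference in rate was not shown. Against whole embryo, Dlx5 was up-regulated in forelimb at E11.5 (2.09, SE 0.21, adjusted p = 1.22e-11) and E12.5 (1.31, SE 0.20, adjusted p = 3.57e-07), and had 0.99 and 0.78 in hindlimb, the former past the thresholds without any 1 of 3 arrays (1.02 to 1.35). At E11.5, 3 of 10 cartilage markers (Acan, Matn1 and Matn4) were up-regulated in forelimb over hindlimb and none the other way. The median log2 difference of the 10 was 0.50. Their mean level read 7.90 to 8.24 on forelimb and 7.37 to 7.72 on hindlimb arrays of that stage. At E10.5 and at E12.5, where Dlx5 did not pass, 2 of 10 were up-regulated in forelimb and none the other way (median 0.54 and 0.27). From E12.5 to E13.5 in forelimb, 5 cartilage genes were up-regulated (Col2a1, Col11a1, Acan, Matn1 and Hapln1), while Dlx5 had -0.90 (SE 0.15, adjusted p = 3.29e-06). Of the osteoblast markers 4 of 8 were measured, none of which passed between the limbs at E11.5 (median 0.22). The part of the skeleton in the Dlx5 result was not tested.

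Dlx6, the partner of Dlx5, lay near or under the median of all probe sets and was never counted. Its group means ran from 4.42 to 5.36, and in E12.5 forelimb its arrays split, at 4.68, 5.16, 6.25, 6.0 and 4.73, against 4.07, 4.36, 4.58, 4.55 and 5.09 in hindlimb. The difference of 0.83 (SE 0.20, adjusted p = 0.00448) passed the thresholds without forelimb replicate 1 (1.00, adjusted p = 0.000536). Over the 8 limb group means Dlx5 and Dlx6 correlated at r = 0.59, and within groups at 0.27. Dlx3, a gene of the ridge and of differentiating epidermis, was likewise never counted by its average. It was brightest in E9.5 forelimb (6.17, 6.45 and 6.11) and had group means of 5.33 to 5.64 in all other groups. Its 2 probe sets correlated at r = 0.10 over the 38 later limb arrays, each with a range of under 1.

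Over the same-stage comparison of the limbs as a whole, 1 of 36 values passed the thresholds. The shares of all genes were 0.566% in either direction at E10.5, 0.313% higher in forelimb at E11.5, 0.506% in either direction at E12.5 and 0.286% at E13.5, and 1 member passed at E11.5 and none at the other stages. At E13.5 the Msx genes passed the p but not the fold. Msx1 lay lower in forelimb, at -0.78 (SE 0.12, adjusted p = 1.44e-05), with all forelimb arrays under all hindlimb arrays, and Msx2 at -0.41 (SE 0.08, adjusted p = 0.000931). At E10.5 and E11.5 Msx2 had the other sign, 0.33 (SE 0.09, adjusted p = 0.00809) and 0.43 (SE 0.09, adjusted p = 0.00118). Sp8 and Sp6 had slightly lower values in forelimb at every stage (Sp8 -0.44 to -0.23, Sp6 -0.27 to -0.10), none of them counted. Against hindlimb 1 stage older the sign turned for both, with Sp8 at 0.52 to 1.31 and Sp6 at 0.10 to 0.17 from E10.5 forelimb on. For E9.5 forelimb, across the array sets, the Sp6 probe sets were again opposed, with 1437788_at at 2.10 and 1427787_at at -1.34, both past the thresholds.

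In that comparison with older hindlimb, 3 of 36 values passed. E9.5 forelimb exceeded E10.5 hindlimb in Sp8 (1.31, SE 0.20, adjusted p = 3.88e-07) and Dlx2 (1.1, SE 0.17, adjusted p = 9.26e-07), 2 of 9 members against 1.54% of genes, across the array sets. E12.5 forelimb exceeded E13.5 hindlimb in Dlx1 (1.17, SE 0.15, adjusted p = 1.07e-08), 1 of 9 against 0.676%. Msx2, at 0.60, passed there by its brightest probe set (1.23). Dlx6, at 0.86, passed without forelimb E12.5 replicate 1 or 5 (1.03 and 1.02) and without the 2 arrays of conflicting labels (1.02). No member passed for E10.5 or E11.5 forelimb, where 0.989% and 0.28% of genes did.

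**Figure D5:**
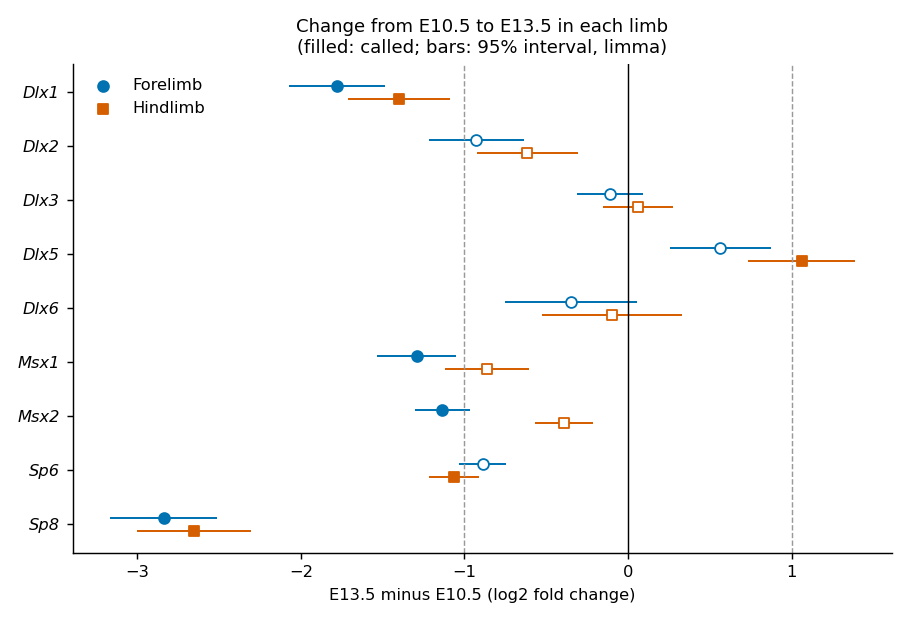
Log2 fold change from E10.5 to E13.5 of each member in forelimb (circles) and hindlimb (squares), with 95% intervals from limma; filled symbols passed both thresholds. Sp8 lies at -2.84 and -2.65, Dlx5 is the 1 member on the higher side in both limbs, and the intervals of Msx2 in the 2 limbs do not meet.

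From one stage to the next, 7 of 63 values passed, 6 of them lower at the later stage. In forelimb, Sp8 was the 1 member down-regulated by its averaged value from E9.5 to E10.5, across the array sets, against 1.8% of genes. Dlx2, at -0.93 there, passed under quantile normalization (-1.06) and without E9.5 replicate 3 (-1.05). From E10.5 to E11.5 Dlx5 was up-regulated (1.71% of genes) and Sp8 down-regulated (0.363% of genes), the latter at -1.03 (SE 0.17, adjusted p = 9.82e-06) and under the fold threshold without any 1 of 3 forelimb arrays (replicates 3 and 4 of E10.5 and 4 of E11.5, -0.99 to -0.91). This Sp8 call was also lost under quantile normalization (-0.98). From E11.5 to E12.5 none passed, where 0.764% of genes did. From E12.5 to E13.5, 3 of 9 were down-regulated (Dlx1, Msx1 and Msx2), against 1.29%, and the median of the 9 was -0.90 against -0.04 for all genes. Sp8, at -0.95 there, passed without E12.5 replicate 5 (-1.003), an array of conflicting labels. With the arrays of conflicting labels regrouped, Sp8 passed (-1.22) and Msx2 did not (-0.94). Dlx6, at -0.84, passed without E12.5 replicate 1 (-1.01). In hindlimb none passed up to E12.5, where 2.32% and 0.824% of genes did, and Dlx1 was down-regulated from E12.5 to E13.5, against 0.396%. Sp8 was at -0.98 and -0.93 in those first hindlimb steps, and passed without E10.5 replicate 4 or E11.5 replicate 3 in the former (-1.02 and -1.04) and without E12.5 replicate 1 in the latter (-1.03). The hindlimb call of Dlx1 was lost without E12.5 replicate 2 or E13.5 replicate 5 (-0.98 and -0.91).

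Over the 3 days together more members passed. In forelimb, 4 of 9 were down-regulated from E10.5 to E13.5 (Sp8, Dlx1, Msx1 and Msx2), against 5.13% of genes. In hindlimb, 3 of 9 were down-regulated (Sp8, Dlx1 and Sp6), against 5.16%, and 1 (Dlx5) was up-regulated, against 5.99%. In whole embryo 1 of 9 (Sp8) was down-regulated from E9.5 to E13.5, against 2.42%. By the brightest probe set of each gene, Sp6 and Msx1 passed there too, both at -1.17. Msx1 and Msx2, at -0.85 and -0.98, passed as well without whole-embryo E9.5 replicate 2 (-1.37 and -1.14) or under quantile normalization (-1.16 and -1.5), which makes the count 3, and Msx2 passed without E13.5 replicate 2 (-1.001). Without E9.5 replicate 1, Dlx5 was up-regulated in whole embryo (1.196, against 0.63 with it). The median log2 fold change of the 9 members was -0.93 in forelimb and -0.62 in hindlimb, against -0.03 and -0.08 for all genes.

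Msx1 and Msx2 were both down-regulated from E12.5 to E13.5 in forelimb, and in hindlimb Msx2 was so by its bright probe set alone. Msx1 fell by 1.08 in forelimb (SE 0.12, adjusted p = 4.56e-10) and had -0.18 (SE 0.12, adjusted p = 0.255) in hindlimb. Msx2 fell by 1.01 in forelimb (SE 0.08, adjusted p = 2.38e-13), and had -0.49 (SE 0.08, adjusted p = 5.44e-06) in hindlimb. The averaged Msx2 value lay close to the fold threshold and was under it without forelimb replicate 1, 2 or 3 of E12.5 or replicate 4 of E13.5 (-0.998 to -0.969). By its bright probe set Msx2 had -1.84 in forelimb and -1.01 in hindlimb, both past the thresholds, from forelimb arrays at 9.36, 9.39, 9.40, 8.98 and 9.04 to 7.61, 7.39, 7.32, 7.05 and 7.60 and from hindlimb arrays at 8.92, 9.04, 8.91, 9.16 and 9.08 to 8.21, 7.88, 8.12, 7.92 and 7.90. The forelimb change minus the hindlimb change was -0.90 (95% interval -1.24 to -0.56, adjusted p = 0.00173) for Msx1 and -0.51 (95% interval -0.75 to -0.28, adjusted p = 0.0122) for Msx2, neither past the p threshold. For Msx2 over E10.5 to E13.5 it was -0.74 (95% interval -0.99 to -0.50, adjusted p = 2.52e-05), a p that 3.03% of genes also passed, and by its bright probe set it was -1.29 (adjusted p = 4.84e-06), past the fold as well. By the averaged values no member passed both thresholds in any of the 4 such differences, where 0.396%, 0.022% and 0.0824% of genes did for the 3 steps and 0.918% for the 3 days (limma, with 1, 2, 4 and 3 of the 9 members at an unadjusted p under 0.05). Of 12 limb mesenchyme markers, 5 (Prrx2, Lhx2, Lhx9, Hand2 and Tbx5) were down-regulated over the same step in forelimb and 2 (Lhx9 and Hand2) in hindlimb. Their mean level read 8.85 to 8.98 and then 7.94 to 8.12 on forelimb arrays and 8.88 to 9.01 and then 8.31 to 8.51 on hindlimb arrays, their summed signal, as log2, 12.87 to 13.03 and then 12.13 to 12.22, and 12.95 to 13.05 and then 12.52 to 12.69, and their part in the Msx results was not tested.

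Of the 18 other genes of the ridge and its pathway, all measured, 4 were up-regulated over whole embryo in E9.5 forelimb (Fgf8, Bmp4, Bmp7 and Jag2). At E10.5, 9 were up-regulated in forelimb and 8 in hindlimb (median 0.90 and 0.76, against 0.03 and 0.04 for all genes), followed by 11 and 10, then 9 and 9, and then 5 and 7 on the later days, with 1 down-regulated (Rspo2, in E12.5 forelimb). Genes of this list that are named without a value were picked after their values were seen. Bmp4 and Bmp7, BMP ligands of the bud, had 2.15 and 2.42 in E10.5 forelimb, and Grem1, the BMP antagonist that keeps the ridge, had 3.83. Jag2, a Notch ligand of the ridge, was up-regulated at E9.5 (1.60) and had 0.77 in E10.5 forelimb and 0.55 in E10.5 hindlimb. From E10.5 to E13.5, 1 of the 18 rose (Bmp2) and 5 fell (Fgf8, Bmp4, Bmp7, Fgf10 and Grem1) in forelimb, and 2 rose (Bmp2 and Fgf9) and 5 fell (Fgf8, Bmp4, Rspo2, Fgf10 and Grem1) in hindlimb. Bmp4, an inducer of the Msx genes, had -1.58 in forelimb and -1.5 in hindlimb. Over the 8 limb group means Bmp4 correlated with Msx1 at r = 0.80 and with Msx2 at 0.79, and within groups at -0.11 and -0.17. Its r over the same means was higher with Dlx1 (0.97), Dlx2 (0.95), Sp8 (0.92) and Sp6 (0.87). It was lower with Dlx6 (0.45), Dlx3 (0.04) and Dlx5 (-0.23), so the values for the Msx genes were not particular to them.

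Of the other members of the 3 families, Msx3, which is confined to the dorsal neural tube, was down-regulated in limb against whole embryo in all comparisons up to E12.5 (-2.79 to -1.86) and had -0.40 and -0.65 at E13.5. Higher values in limb from E10.5 on were found for Sp3, by 1.09 to 1.51, Sp4, by 1.24 to 1.72, and Sp1, by 0.54 to 1.32, of which Sp1 passed from E12.5. All of these cross the array sets, and at E9.5 within a set the 3 had 0.35, 0.06 and 0.01, none past the thresholds. Sp5, a WNT target, had -0.79 to 0.14 and Dlx4 -0.44 to 0.34, never counted. Sp7, the osteoblast factor, was down-regulated in E13.5 hindlimb (-1.1). Dlx6os1, the antisense neighbour of Dlx6, was down-regulated in E12.5 hindlimb and in both limbs at E13.5 (-1.27, -1.09 and -1.07). Sp2 had no probe set of its own.

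Genes with the most similar course were taken as the 3 of highest Pearson correlation with each member over the 8 limb group means from E10.5 to E13.5, among 3084 or 3085 genes whose means spanned 1 log2 unit or more. With 8 points and so many candidates the values are descriptions. Sp8 lay closest to AU020206, Ttpa and Ttc39a (r = 0.998, 0.997 and 0.996), and Sp6 to the mitosis genes Mad2l1 and Nuf2 and the helicase gene Recql4 (0.995, 0.992 and 0.992). Dlx1 lay closest to Dhx8, Zfp768 and Urod (0.997, 0.996 and 0.995), Dlx2 to Hsd11b2, Zfp41 and Alms1 (0.994, 0.990 and 0.990) and Dlx5 to Selenbp1, Mr1 and Map2 (0.993, 0.974 and 0.973). Msx1 lay closest to Khdrbs3, Stx18 and Dach2 (0.974, 0.950 and 0.944) and Msx2 to Ntf5, Prrx2 and Ier5l (0.979, 0.943 and 0.936). Dlx2, Dlx6 and Dlx3 themselves spanned under 1 log2 unit over these groups, and the best r of the latter pair was 0.924 for Cited1 and 0.810 for Sim2. Stx18 is also the neighbour of Msx1 on one side of the chromosome, where Cytl1 on the other side had r = -0.79. Itga6, beside Dlx1 and Dlx2, ran opposite to both (r = -0.86 and -0.84).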

How the data were processed

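Total RNA of wild-type FVB limb buds and embryos was measured on Affymetrix GeneChips for the mouse genome, after 2 cycles of labelling, with each array from 1 embryo. The authors normalized all arrays with RMA (default settings, version not given in the sources used here), used Harshlight on 1 whole-embryo array of E12.5 that had a surface defect, and deposited linear intensities for 45101 probe sets, taken here to log2. Of these, 34958 had 1 gene symbol, 932 had several and 9211 had none, and log2 values of the first were averaged into 18194 genes. One model with a mean per group was fitted to all 51 arrays in limma 3.58.1 (R 4.3.3, lmFit and eBayes, 37 residual degrees of freedom), and p-values were adjusted over all genes in each comparison. The script was tested on simulated data. Groups came from the sample titles. The number of arrays limits the precision.

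The members and the lists (ridge and pathway, other family members, surface ectoderm, limb mesenchyme, cartilage, osteoblast, forebrain, pharyngeal arch and neural crest) were chosen with earlier results of these data known. Named genes were all members, up to 6 ridge genes with values, the other family members, the 3 genes most alike each member, chromosomal neighbours and Tbx5, Tbx4 and Pitx1. Markers named because a list's count was small were picked after their values were seen. Promoters came from RefSeq tables (GRCm38.p6), whose coordinates are not those of the probe sets. Alternatives were quantile normalization, a fit on the groups compared alone, each gene's brightest probe set, single probe sets, a filter on dim genes (mean 6 or more in a group), an intensity trend in the prior, a replicate block, the 2 arrays with conflicting labels left out or regrouped, and each array left out.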

Additional observations from a re-analysis of the deposited data

Results flagged for a closer look

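Each of the 9 measured members was examined in each group of 4 or 5 arrays, which gave 72 cases that share arrays. In 2 of the 72, an array lay far from the others, where chance gives about 1 in 20. Dlx2 in forelimb E13.5 replicate 3 read 6.03, against 5.80 to 5.87 on the other arrays of that group. Dlx3 in forelimb E10.5 replicate 1 read 5.77, against 5.52 to 5.58 on the others. The forelimb change of Msx2 from E10.5 to E13.5 minus the hindlimb change was -0.74 on the log2 scale (limma, adjusted p = 2.52e-05), with forelimb going from 6.68 to 5.55 and hindlimb from 6.35 to 5.96.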

How the results depend on the processing

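The count of members past the thresholds was 26 against whole embryo (22 to 28 with 1 array left out, 22 to 35 otherwise) and 7 between stages (6 to 8, and 5 to 9). Between the limbs it was 1, with 1 to 2 when 1 array was left out (2 without forelimb E12.5 replicate 1) and 0 with the 2 groups fitted alone. For the difference of change it was 0, and 1 by the brightest probe set of each gene (Msx2, -1.29, limma adjusted p = 4.84e-06). Reversed signs came from single probe sets, with Msx2 at -1.05 and -1.14 by 1438351_at in E11.5 forelimb and hindlimb against whole embryo, and Sp6 by 1427787_at at -1.34 for E9.5 forelimb against E10.5 hindlimb and 1.05 from E9.5 to E10.5 forelimb. The cause was not tested. Quantile normalization moved the median of all genes by at most 0.133. In forelimb it took Msx1 and Msx2 under the fold threshold from E12.5 to E13.5 (-0.91 and -0.92), and Sp8 from E10.5 to E11.5 (-0.98). Under the replicate block, 24 values passed against whole embryo and 1 between the limbs, and Dlx1 in E12.5 forelimb and Dlx2 in E12.5 hindlimb fell under the fold threshold (-0.97 for Dlx2). Deviations of same-numbered forelimb and hindlimb arrays of a stage correlated at -0.11 to 0.35 over 18 pairs, with a median of 0.10 against -0.02 for other pairs. Of the 18, 9 were over 0.1 and 5 best with their own number, so the numbers were not taken as pairs, and whether arrays shared an embryo cannot be told from them. Calls near the fold threshold against whole embryo rest on 2 whole-embryo arrays a stage.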
